A study of Mus musculus with 3 samples.

Results

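The genes described here encode enzymes that add or remove acetyl groups and methyl groups on histones and other proteins, together with bromodomain proteins that bind acetylated lysine. They were all mouse protein-coding genes of the GENCODE M21 annotation whose symbol is Kmt, Kdm, Kat, Hdac, Sirt, Brd or Prmt followed by a digit, without Kdm2a, Kdm2b, Kdm4a, Kdm4b and Kdm4c. This gave 63 genes of 21938 protein-coding genes. The choice used symbols only and no measured value. The quantity measured was H3K36me3, the histone mark that Setd2 writes over transcribed genes, by chromatin immunoprecipitation sequencing (ChIP-seq) in regulatory T cells (Treg cells). Treg cells are CD4+ T cells that restrain immune responses and are defined by the transcription factor Foxp3. They were sorted by the Foxp3-YFP reporter from the spleen and the large intestine (LI) of adult C57BL/6 mice at steady state, all of which carried the Foxp3-YFP allele, in which Cre and YFP are driven by Foxp3. Cells of several male and female mice were pooled into 1 library per tissue, so each comparison sets 1 library against another, without replicates. The input library, made from splenic chromatin, was not analysed here.

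Histone lysine methylation and acetylation are set by opposing enzymes. Methyltransferases of the Kmt2 family write H3K4 methylation at promoters and enhancers, Kdm enzymes erase methyl groups, and Prmt enzymes methylate arginine. Kat enzymes add acetyl groups to lysine, and histone deacetylases (Hdac) and the NAD-dependent sirtuins (Sirt) take them off. The BET proteins among the bromodomain genes bind acetylated histones and promote transcription elongation. H3K36me3 over a gene body follows transcription through it, so the values below describe the chromatin of the genes for these enzymes and not the activity of the enzymes.

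Values are RPKM (coverage by reads per kilobase, scaled to the depth of the library), averaged over each peak. The peaks with their midpoint in a gene body were summed for each gene. The sum is not weighted by peak length, so it rises with the number of peaks and is not a level of the mark. LI values were divided by 1.03, the ratio of the LI total to the spleen total over all 120910 peaks. Ratios are log2 of LI over spleen after adding 0.5 RPKM to each sum, which understates the difference of low genes. The interval printed with a ratio is an approximate 95% counting interval that takes each read as covering 200 bp. It holds counting error only and not the spread between mice. From the smallest steps between values, about 29600000 reads had been mapped for spleen and 38100000 for LI. Among marker genes, 7 of 7 Treg and T cell genes had peaks, with a summed signal of 1847 RPKM in spleen and 1487 RPKM in LI. Ikzf2 carried most of that sum, and the other 6 genes together had 642.0 RPKM in spleen and 662.8 RPKM in LI, with Foxp3, Cd4 and Ctla4 higher in LI and Il2ra, Cd3e and Cd3g higher in spleen. The intestinal epithelium list had peaks in 2 of 7 genes, Epcam and Vil1, with a sum of 29.9 RPKM in spleen and 58.0 RPKM in LI, and Krt8, Krt18, Krt20, Cdh1 and Cdx2 had none. The B cell list had peaks in 3 of 6 genes (60.2 and 51.8 RPKM), and Ms4a1 and Ebf1 had none. The myeloid list had peaks in 2 of 6 (29.7 and 30.4 RPKM), with none in Lyz2, Itgam, Adgre1 and Cebpa. Of the CD8 T cell genes, Cd8b1 had 21.1 and 9.16 RPKM and Cd8a had no peak. The part of other cells in the results was not tested, and a larger share of marked cells cannot be told apart from more mark per cell.

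To show what chromatin the comparison rests on, the central 200 bases of the longest peak are given for 4 genes, in the direction of transcription, with each CpG in capitals. The sequences are from the GRCm38 assembly, which is mm10. Kdm6b and Kmt2d carried more signal in LI and have GC-rich peaks. Prmt3 and Kdm3a carried more signal in spleen and have peaks with less GC. The Kdm6b stretch is exonic and lies at chr11:69404452-69404651 on the minus strand. The Kmt2d stretch is exonic and lies at chr15:98852809-98853008 on the minus strand. The Prmt3 stretch is intronic and lies at chr7:49808017-49808216 on the plus strand. The Kdm3a stretch is intronic and lies at chr6:71597689-71597888 on the minus strand.
Kdm6b: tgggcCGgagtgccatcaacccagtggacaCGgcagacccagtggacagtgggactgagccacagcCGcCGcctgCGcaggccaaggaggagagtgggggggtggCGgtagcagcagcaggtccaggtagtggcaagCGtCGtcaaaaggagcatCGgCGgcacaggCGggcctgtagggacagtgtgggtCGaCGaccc
Kmt2d: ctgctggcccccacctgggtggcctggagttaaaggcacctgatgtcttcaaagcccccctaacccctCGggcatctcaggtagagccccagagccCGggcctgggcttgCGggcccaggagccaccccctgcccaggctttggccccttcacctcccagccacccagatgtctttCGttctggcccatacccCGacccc
Prmt3: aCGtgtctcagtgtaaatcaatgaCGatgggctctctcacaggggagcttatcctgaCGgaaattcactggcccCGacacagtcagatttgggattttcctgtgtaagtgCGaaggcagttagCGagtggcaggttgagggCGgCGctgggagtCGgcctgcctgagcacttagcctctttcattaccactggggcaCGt
Kdm3a: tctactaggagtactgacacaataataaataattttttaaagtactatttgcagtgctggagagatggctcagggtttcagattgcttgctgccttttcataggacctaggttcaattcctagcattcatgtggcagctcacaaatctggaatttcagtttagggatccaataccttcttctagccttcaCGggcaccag
The 200 bases hold 13 CpG and 67.5% GC in Kdm6b, 5 CpG and 67% GC in Kmt2d, 10 CpG and 55% GC in Prmt3, and 1 CpG and 41.5% GC in Kdm3a. How the tissue ratio moves with base composition is given further on.

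As a set, the genes carried much H3K36me3 in both tissues and differed little between them. Of the 63 genes, 57 had a peak and 56 had at least 20 RPKM over both libraries, the minimum for a ratio. The median summed signal of these 56 was 157.3 RPKM in spleen and 153.8 RPKM in LI, against 79.9 and 82.7 RPKM over all 9442 protein-coding genes with the same minimum. The median number of peaks, with which the sum rises, was 13 in the set and 7 over all these genes. Averaged over the length of the gene body, the median level was 7.52 RPKM in spleen and 7.56 RPKM in LI, against 4.75 and 4.87 RPKM over all genes. This level counts the whole length of each assigned peak, also bases outside the gene. The median log2 ratio was -0.06, and the middle 50% of the genes lay between -0.17 and 0.10. Over all genes the median was 0.005 and the middle 50% lay between -0.20 and 0.23. Of the 56, 21 were higher in LI and 35 in spleen.

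No gene of the set passed 1.5-fold. Over all tested genes 8.96% passed 1.5-fold towards LI and 5.57% towards spleen, and the counts in the set were 0 and 0 of 56. The set has larger sums and more peaks per gene than the average gene. Ratios that rest on more reads have less counting error, but the sum does not count reads. A minimum on the sum is also not a minimum on the level of the mark. Kmt2d, with the highest level of the set, falls below 200 RPKM over both libraries. Among genes with at least 200 RPKM, 4.96% and 2.99% of 4113 passed 1.5-fold in these directions, and 0 and 0 of the 34 genes of the set. With a threshold of 25% more signal the set had 4 genes higher in LI, Sirt3, Kat5, Kdm6b and Sirt2, against 18.7% of all genes. It had 4 higher in spleen, Brd8, Prmt3, Hdac6 and Hdac7, against 14.8% of all genes. The counting interval lay above 0 for 7 genes of the set (12.5%), with 17.5% over all genes. It lay below 0 for 8 (14.3%), with 14.9% over all genes. Several settings bring 1 to 3 genes past 1.5-fold, as listed in the closing section.

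**Figure D1:**
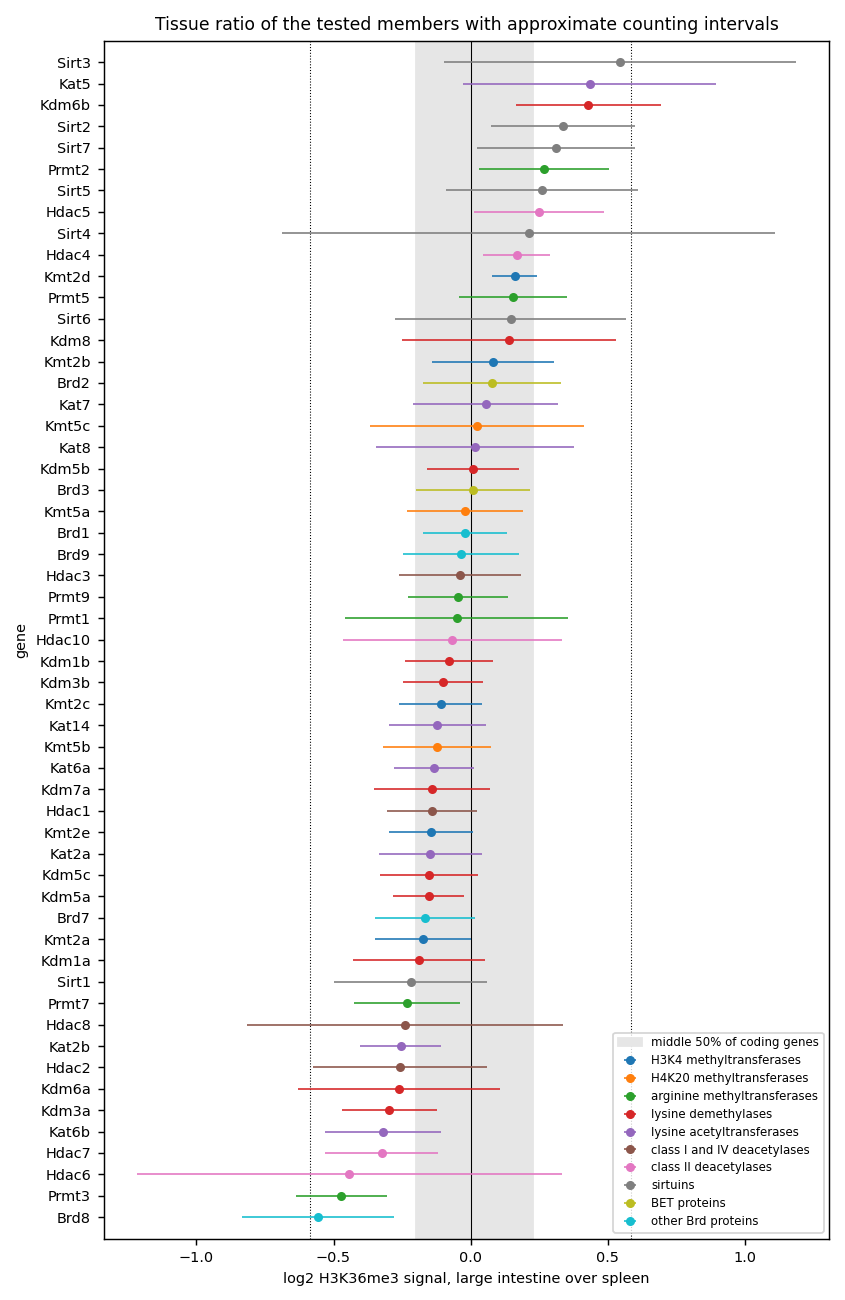
The log2 ratio of summed H3K36me3 signal, LI over spleen, is plotted for 55 of the genes with at least 20 RPKM, with bars for the approximate 95% counting interval, colours for the kind of enzyme, dotted lines at 1.5-fold and a grey band for the middle 50% of all coding genes. All points lie between the dotted lines, from -0.56 in Brd8 to 0.55 in Sirt3, and most bars cross 0.

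The 5 H3K4 methyltransferases had a median level of 15.5 RPKM over the gene body in spleen and 15.4 RPKM in LI, with Kmt2c the lowest of them in both. Kmt2d, whose product writes H3K4 monomethylation at enhancers, had the highest level of the whole set, 34.9 RPKM in spleen and 40.0 RPKM in LI. Its spleen level was above that of 99.2% of all tested genes. Kmt2d (chromosome 15, 98831669 to 98871204) carried this in 2 peaks, and the longer one spanned 28.3 kb with 42.9 RPKM in spleen and 49.6 RPKM in LI. Its summed signal was 74.2 and 83.0 RPKM, a log2 ratio of 0.16 (0.08 to 0.24), and both peaks were higher in LI. After correction for GC content the ratio was -0.05. Kmt2b, another writer of H3K4 methylation, had 29.2 RPKM over the gene body in spleen and 32.4 RPKM in LI, with a ratio of 0.08 (-0.14 to 0.31) that was -0.13 after GC correction. The remaining 3, Kmt2a, Kmt2c and Kmt2e, had ratios from -0.17 to -0.11 with intervals that included 0. The 3 H4K20 methyltransferases, Kmt5a, Kmt5b and Kmt5c, lay between -0.12 and 0.02.

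Arginine methyltransferases held the clearest difference towards spleen. Prmt3, a largely cytosolic enzyme that methylates ribosomal protein Rps2, had 538.0 RPKM in spleen and 387.9 RPKM in LI. Its log2 ratio was -0.47 (-0.64 to -0.31), and 9 of its 47 peaks were higher in LI. Prmt3 (chromosome 7, 49778346 to 49858265) kept ratios of -0.46 with peaks weighted by length and -0.42 after GC correction. The difference was therefore spread over many short peaks, 36 of them intronic, and the longest was 2.04 kb. Prmt2, a coactivator with weak methyltransferase activity, lay on the other side with 189.0 RPKM in spleen and 227.5 RPKM in LI, a ratio of 0.27 (0.03 to 0.51), and 14 of 18 peaks were higher in LI. Prmt5, the main writer of symmetric dimethylarginine, had 54.6 and 60.9 RPKM and a ratio of 0.16 (-0.04 to 0.35), with all 3 peaks higher in LI. Prmt7, named after its values were seen because its interval excluded 0, had 314.2 and 267.4 RPKM and a ratio of -0.23 (-0.42 to -0.04). Prmt6 had 1 peak with 8.14 RPKM in spleen and 5.05 RPKM in LI, below the minimum, and Prmt8, a gene known from brain, had no peak.

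**Figure D2:**
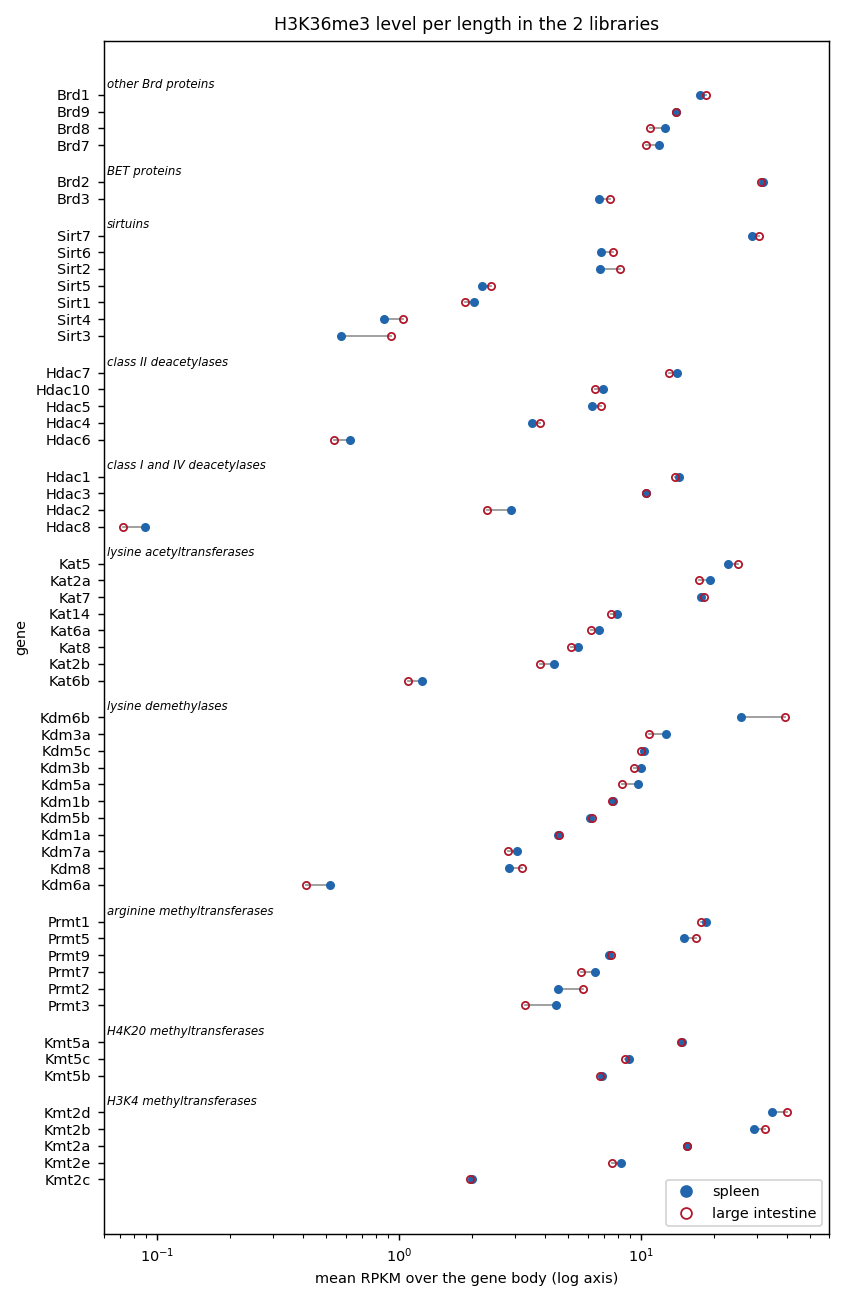
The level of H3K36me3 over the gene body is plotted in RPKM on a log axis for 55 of the genes, grouped by kind of enzyme, with a filled point for spleen and an open point for LI. Levels run from 0.09 RPKM in Hdac8 to 34.9 RPKM in Kmt2d in spleen, while the points of 1 gene lie close together; the widest gaps include Kdm6b and Sirt3.

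Among 11 tested lysine demethylases 3 were higher in LI and 8 in spleen, with a median ratio of -0.14. Their peaks had a median GC content of 44.4%, and after GC correction the ratios lay on both sides of 0, between -0.15 and 0.14. Kdm6b, which removes methyl groups from H3K27, stood at the LI end. It had 68.3 RPKM in spleen and 92.1 RPKM in LI, a log2 ratio of 0.43 (0.16 to 0.69). Kdm6b (chromosome 11, 69398508 to 69413675) has a 10.2-kb peak over most of its body, with 36.6 RPKM in spleen and 56.0 RPKM in LI. That peak alone gave 0.61. The level over the gene body was 25.9 RPKM in spleen and 39.3 RPKM in LI. Its peaks have 57.1% GC, and the ratio fell to 0.14 after GC correction. Kdm6a, an X-linked enzyme for the same mark, pointed the other way with 87.0 and 72.5 RPKM, a ratio of -0.26 (-0.63 to 0.11), and a level of only 0.52 RPKM in spleen and 0.41 RPKM in LI.

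Kdm3a, an H3K9 demethylase, had 238.0 RPKM in spleen and 193.7 RPKM in LI, a ratio of -0.30 (-0.47 to -0.12), with 4 of 19 peaks higher in LI. Its peaks have 40.2% GC, and after GC correction the ratio was -0.03. Kdm5a, an H3K4 demethylase named after its values were seen, had 498.1 and 447.7 RPKM with a ratio of -0.15 (-0.28 to -0.02); GC correction brought it to 0.12. Kdm4d and the Y-linked Kdm5d had no peak.

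Of the 8 acetyltransferase genes, 3 were higher in LI and 5 in spleen, with a median ratio of -0.13. Kat6b, an H3K23 acetyltransferase gene of 191045 bp, had 285.6 RPKM in spleen and 228.7 RPKM in LI, a ratio of -0.32 (-0.53 to -0.11), with 7 of 25 peaks higher in LI. Kat2b, which encodes PCAF and was named after its values were seen, had 514.9 and 431.3 RPKM, a ratio of -0.26 (-0.40 to -0.11), with 12 of 44 peaks higher in LI. Kat5, which encodes the Foxp3-binding acetyltransferase Tip60, had the second highest ratio of the set. Kat5 had 31.3 RPKM in spleen and 42.5 RPKM in LI, a ratio of 0.43 with an interval of -0.03 to 0.89. Its 6.68-kb peak had 24.5 and 26.6 RPKM, a ratio of 0.11, and the remaining 200-bp peak gave 1.17. The long peak also has its midpoint in Rnaseh2c. Weighted by length, Kat5 gave 0.09, so the summed difference came from the short peak.

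Class I deacetylases, of which Hdac1, Hdac2 and Hdac3 work in corepressor complexes, were all lower in LI, and none had an interval that excluded 0. So were 35 of 56 genes of the whole set and 4659 of 9442 coding genes lower in LI. After GC correction Hdac1 gave -0.17, Hdac2 -0.12, Hdac3 -0.04 and Hdac8 -0.08. Hdac1 had 195.7 RPKM in spleen and 177.3 RPKM in LI, a ratio of -0.14 (-0.30 to 0.02). Hdac2 had 149.4 and 124.8 RPKM, a ratio of -0.26 (-0.58 to 0.06). Its longest peak, 1.87 kb with 14.5 and 8.90 RPKM, gave -0.67. Hdac3, the subunit of NCoR complexes, had 152.5 and 148.5 RPKM, a ratio of -0.04 (-0.26 to 0.18). The Hdac3 ratio was 0.01 with the values as deposited and 0.13 with peaks of 1 kb or longer. The X-linked Hdac8 had a ratio of -0.24 (-0.81 to 0.34) and the lowest level of the set, 0.09 RPKM over the gene body in spleen and 0.07 RPKM in LI. The class IV gene Hdac11 had no peak.

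Class II deacetylases, several of which shuttle between nucleus and cytoplasm, went both ways. Hdac7, which is abundant in thymocytes, had 200.6 RPKM in spleen and 160.2 RPKM in LI, a ratio of -0.32 (-0.53 to -0.12), with 3 of 13 peaks higher in LI. Its longest peak, 12.2 kb with 31.2 and 27.7 RPKM, gave -0.17, and the whole gene gave -0.16 with peaks weighted by length and -0.49 after GC correction. Hdac5 had 127.8 and 151.8 RPKM, a ratio of 0.25 (0.01 to 0.48) that turned to -0.05 after GC correction. Hdac4, named after its values were seen, had 638.9 and 717.7 RPKM, a ratio of 0.17 (0.05 to 0.29), with 33 of 55 peaks higher in LI. The Hdac4 ratio was 0.07 with peaks weighted by length and 0.07 after GC correction. Its longest peak, 12.6 kb with 19.5 and 19.6 RPKM, gave 0.007. Hdac6, a tubulin deacetylase gene on chromosome X, had 3 short peaks with 33.3 and 24.3 RPKM and a ratio of -0.44 (-1.22 to 0.33). Without the strongest of these peaks, which had 13.9 and 3.27 RPKM, its ratio was 0.12. Hdac9, described as a brake on Treg function, had no peak in its 869516 bp.

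**Figure D3:**
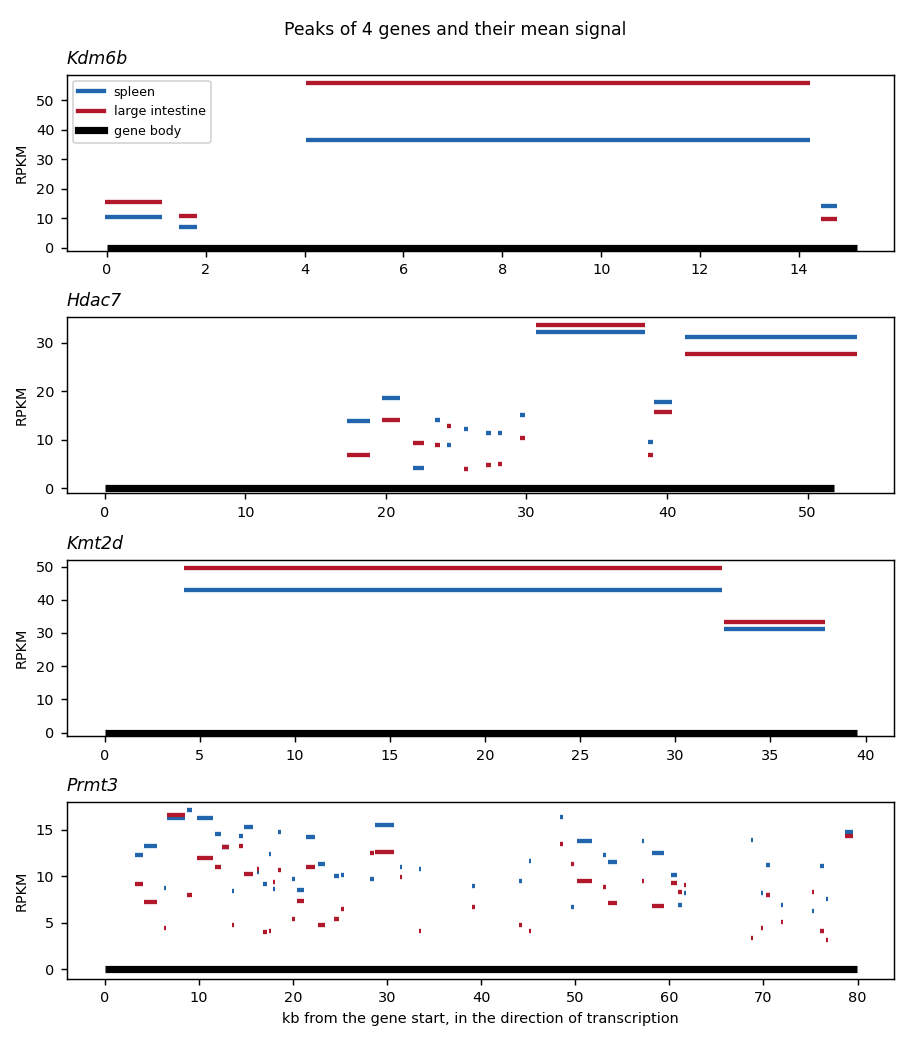
Each bar is a peak of Kdm6b, Hdac7, Kmt2d or Prmt3, drawn from its start to its end in kb from the gene start, at the height of its mean RPKM in spleen or in LI, above a black bar for the gene body. In Kdm6b the 10.2-kb peak stands at 36.6 RPKM in spleen and 56.0 RPKM in LI, while Prmt3 shows many short peaks, of which 9 of 47 are higher in LI.

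Sirtuin genes leaned towards LI: 6 of 7 were higher there, with a median ratio of 0.26, while 21 of 56 genes of the whole set and 4783 of 9442 coding genes were. Sirt3, a mitochondrial deacetylase, had 39.6 RPKM in spleen and 58.0 RPKM in LI, a ratio of 0.55 (-0.10 to 1.19) over 5 short peaks. Sirt2, a cytosolic deacetylase, had 122.8 and 155.1 RPKM, a ratio of 0.34 (0.07 to 0.60), with 9 of 11 peaks higher in LI. Sirt7, a nucleolar sirtuin, had 40.9 and 50.8 RPKM, a ratio of 0.31 (0.02 to 0.60), but its 5.95-kb peak alone gave 0.07. Sirt5, a mitochondrial desuccinylase, had 90.9 and 109.0 RPKM, a ratio of 0.26 (-0.09 to 0.61), but its 2.31-kb peak alone gave -0.15.

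Sirt1, a nuclear deacetylase that acts on Foxp3, was the exception with 144.9 RPKM in spleen and 124.4 RPKM in LI, a ratio of -0.22 (-0.50 to 0.06), which was -0.01 after GC correction and -0.06 with peaks of 1 kb or longer. Peaks of the sirtuins had a median GC content of 52.9%, and those of Sirt1 had 41.0%. After GC correction the sirtuin median was 0.08 with 5 of 7 higher in LI. With peaks of 1 kb or longer only, 3 of the 5 sirtuins that have such peaks were higher in LI, with a median of 0.07. Their levels spread widely, from 0.58 RPKM in Sirt3 to 28.6 RPKM in Sirt7 over the gene body in spleen.

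Among the bromodomain genes, the BET gene Brd2 had a level of 31.9 RPKM in spleen and 31.4 RPKM in LI. The level counts whole peaks, and 18.7% of the length of Brd2 peaks lies outside the gene. Within the gene body, 5 equal parts of Brd2 had 0, 15.3, 30.0, 39.5 and 39.5 RPKM in spleen. The same parts of Kmt2b had 21.8, 29.8, 29.8, 29.8 and 29.8 RPKM, so the level of Brd2 is not ranked here. The summed signal of Brd2 was 69.1 and 72.9 RPKM, a ratio of 0.08 (-0.17 to 0.33). Of its peaks, 1 also has its midpoint in H2-DMa, and without that peak the ratio was -0.003. It was -0.06 with peaks weighted by length and -0.10 after GC correction. Brd3, another BET gene, had 234.0 and 235.6 RPKM, a ratio of 0.01 (-0.20 to 0.22). Brd8, a subunit of the NuA4 acetyltransferase complex, had the lowest ratio of all, with 154.8 RPKM in spleen and 105.1 RPKM in LI and a ratio of -0.56 (-0.83 to -0.28). Of its 13 peaks 2 were higher in LI, but its 9.01-kb peak had 19.5 and 18.0 RPKM and a ratio of -0.11. Weighted by length, Brd8 gave -0.25. Brd3os, a short gene on the strand opposite to Brd3 that the symbol rule takes in, had no peak and is not known as an enzyme or reader.

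The 4 tested genes on chromosome X, Kdm5c, Kdm6a, Hdac6 and Hdac8, were all lower in LI, with a median of -0.25. The counting intervals of all 4 included 0. After GC correction the ratios were -0.0006, -0.15, -0.71 and -0.08 in this order. Over 212 tested coding genes of that chromosome the median was -0.16, and 144 of them were lower in LI. The libraries pooled mice of both sexes, and the part of sex composition was not tested.

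Along the gene body, H3K36me3 of the set was higher towards the transcript end in both tissues. In 5 equal parts of the gene body, the mean signal of the 56 genes in spleen was 3.23, 8.18, 10.7, 12.8 and 14.3 RPKM. In LI it was 3.25, 8.40, 11.0, 13.3 and 14.8 RPKM. Over all tested coding genes the mean went from 1.96 to 9.80 RPKM in spleen and from 2.02 to 10.3 RPKM in LI. The part nearest the transcript end was the highest in 24 of the 56 genes in spleen and 26 in LI. In spleen this was 42.9% of the set, near the 40.4% of all tested genes, and in LI the share over all genes was 41.7%. A gene with equally high parts was counted only once, here and over all genes. Sirt7, Kmt2b and Brd2 were counted at an earlier part although their last part was equally high, so the counts for the end are low. In the set, 52 genes had their highest part in the same place in both libraries. In spleen Prmt3 and Hdac8, or 3.57% of the 56, were highest in the part nearest the start, as were 4.42% of all tested genes; both were singled out after their values were seen. Prmt3 had 8.87 RPKM in that part of the gene in spleen and 1.91 RPKM in the part nearest the end.

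**Figure D4:**
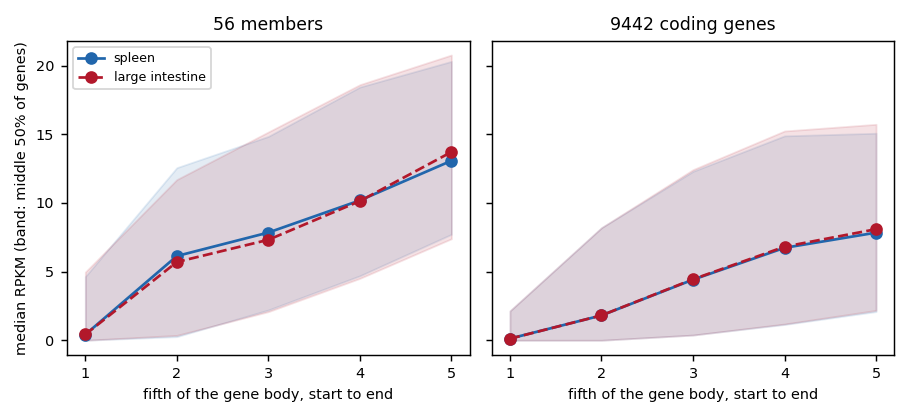
The median RPKM over genes in 5 equal parts of the gene body, from start to end, is drawn for spleen and LI, with bands for the middle 50% of genes, for the 56 genes of the set at left and all 9442 tested coding genes at right. Both panels go up along the gene, and the spleen and LI lines run together.

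In all, 926 peaks lay in the 57 genes with a peak, and their median length was 533 bp. Introns held 70.5% of them, exons 14.9%, and 14.6% lay within 1 kb of a transcript start. A peak of 10 kb or more was found in 9 genes, or 16.1% of the tested set, against 6.09% of all tested genes. These include Kmt2d, Kdm6b and Hdac7. Log2 ratios of single peaks in the set had an SD of 0.74 below 1 kb and of 0.29 from 1 kb up.

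The tissue ratio of these genes moved with the base composition of their peaks. Across the 56 genes Pearson r between the ratio and the GC content was 0.54, and it was 0.33 across all 9442 tested genes. The genes share the 2 libraries and are not independent replicates. In the 19 genes with under 45% GC the median ratio was -0.15 and 2 were higher in LI. In the 17 genes between 45 and 50% the median was -0.04 and 4 were higher in LI. In the 20 genes at 50% and over it was 0.14 and 15 were higher in LI. When each peak was corrected by the median ratio of peaks of like GC content, r was -0.19 and the SD of the ratios went from 0.23 to 0.20. These medians come from the same 2 libraries, so the loss of the rise with GC content is built into the correction. Any tissue difference that goes with GC content is taken out as well. Of the genes whose sequences are printed above, Kdm6b went from 0.43 to 0.14, Kmt2d from 0.16 to -0.05 and Kdm3a from -0.30 to -0.03, while Prmt3 went from -0.47 to -0.42.

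**Figure D5:**
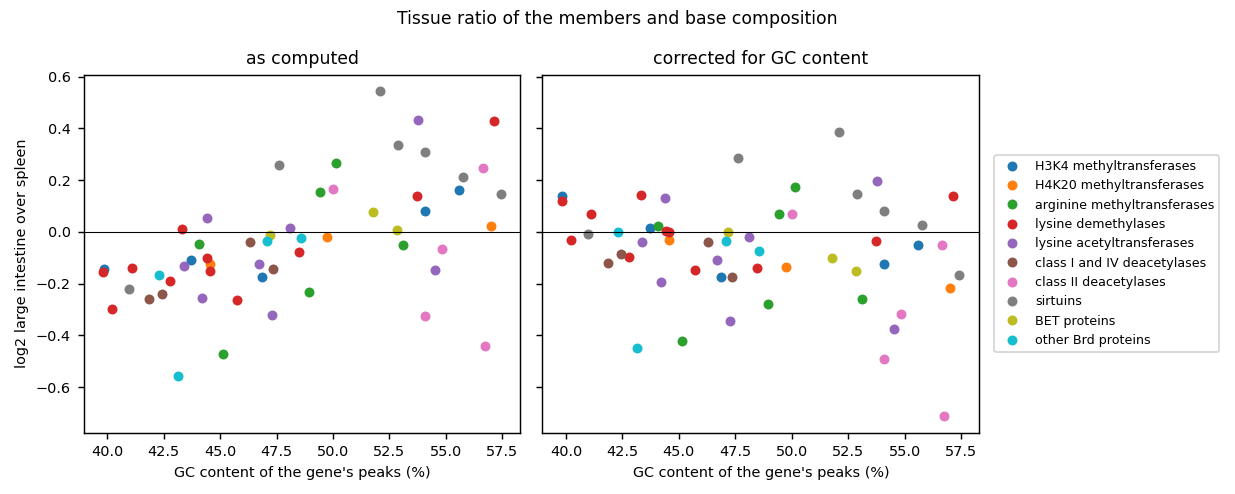
The log2 ratio of LI over spleen is plotted against the GC content of the peaks of each gene, for the 56 genes, as computed at left and after correction for GC content at right, with colours for the kind of enzyme. At left the points rise with GC content (r of 0.54) and at right, where the correction takes out such a rise by construction, they do not (r of -0.19).

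Genes of related function whose symbols fall outside the rule were compared in the same way. Of 103 such genes in 7 lists of acetyltransferases, methyltransferases, demethylases, complex subunits and bromodomain proteins, 95 were tested and the median ratio was -0.05. No gene passed 1.5-fold towards LI, and 5 passed it towards spleen, with 8.96% and 5.57% over all genes. Baz2b, a bromodomain protein of chromatin remodelling, had 264.1 RPKM in spleen and 122.5 RPKM in LI, a ratio of -1.11 (-1.41 to -0.80). Trim33, a chromatin-binding ubiquitin ligase, had 236.3 and 154.1 RPKM, a ratio of -0.62 (-0.88 to -0.35). Hat1, which acetylates newly made histone H4, had 137.7 and 79.1 RPKM, a ratio of -0.80 (-1.22 to -0.37). The methyltransferase genes Smyd3 and Smyd2 gave -0.76 (-1.38 to -0.14) and -0.70 (-1.27 to -0.12). All 5 had low levels over the gene body in spleen. These were 0.36 RPKM in Baz2b, 1.55 in Trim33, 0.85 in Hat1, 0.03 in Smyd3 and 0.59 in Smyd2. The median over all tested genes was 4.75 RPKM.

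At the other end were Clock, a circadian factor, with 126.0 RPKM in spleen and 188.8 RPKM in LI and a ratio of 0.58 (0.27 to 0.89), and Mbd2, a NuRD subunit that binds methylated DNA, with 319.1 and 460.8 RPKM and a ratio of 0.53 (0.35 to 0.71). Dot1l, the H3K79 methyltransferase, gave 0.44 (0.24 to 0.64) and Tada2a 0.40 (0.06 to 0.74). Levels over the gene body in spleen were 0.77 RPKM in Clock, 6.77 in Mbd2, 23.9 in Dot1l and 0.89 in Tada2a. In the other lists the extremes were Epc2 (-0.51), Sap18 (-0.54), Wdr82 (-0.42) and Phf8 (-0.40) towards spleen, and Ash2l (0.15), Phf2 (0.18) and Zmynd11 (0.17) towards LI. Over all related genes, 10 of 95 had an interval above 0 and 19 below it, with 17.5% and 14.9% over all coding genes. The 17 tested bromodomain proteins had 0 above and 9 below, the 18 deacetylase complex subunits 6 and 1, and the other 5 lists 0 to 2 above and 1 to 3 below.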

How the data were processed

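Single-end reads of 75 nt from the 2 immunoprecipitated libraries were processed by the authors, whose processing notes name FastQC, Bowtie2, MACS2 and bedtools without versions and the build mm10. Peaks of both tissues were called against input and merged. The deposited values are mean RPKM coverage per merged peak, made with bamCoverage and multiBigwigSummary, although the table is labelled as raw counts. Multiplied by peak length, 100% of low values were whole in units of a library-specific step (tolerance 0.05), which gave the depth with 20-bp bins. Reads per peak were not recovered, so no count test was run, and with 1 library per tissue there is no p-value. The number of value columns left unused was 0.

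From there, peaks were assigned by midpoint to GENCODE M21 gene bodies, summed, scaled to the total over all peaks, and compared as log2(RPKM + 0.5) in genes with at least 20 RPKM. Levels over the gene body weight peaks by length and count whole peaks, also where they reach outside the gene. GC content came from GRCm38, in 20 bins for the correction; 0 of 21 chromosomes had a peak past its end. Named genes were the 8 highest and 8 lowest ratios, the 4 highest and 4 lowest levels in spleen, genes without a peak, genes past 1.5-fold and a list of genes known in T cells or chromatin, and in related lists those past 1.5-fold and each list's extremes. The genes and lists were chosen with earlier results of these data known. A gene of this rule and a marker gene are not reported here. Ratios and intervals were also run on simulated data. The simulated reads followed the same 200-bp assumption as the intervals, so this run cannot check that assumption or the spread between mice. The work used Python 3.11.15 with numpy 2.4.6, pandas 2.3.3, scipy 1.17.1 and matplotlib 3.10.9.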

Additional observations from a re-analysis of the deposited data

How the results depend on the processing

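For the 56 genes, 499 ratios were recomputed under 9 alternatives: 483 stayed within the counting interval of the main ratio and the rest lay outside it or reversed. The sign changed in 48 of the 499, in 28 genes, most often with GC correction (15) and peaks of 1 kb or longer (14). In 45 of these the main interval included 0, among them Sirt5 (-0.15) and Kdm1a (0.07) with peaks of 1 kb or longer, Kmt2b (-0.16) and Hdac6 (0.12) without the strongest peak, and Kmt2e (0.14) and Sirt6 (-0.17) with GC correction. In 3 the main interval excluded 0, all with GC correction, in Hdac5 (-0.049), Kmt2d (-0.0498) and Kdm5a (0.12). The median ratio of the set stayed below 0 in every alternative run, between -0.14 with at least 200 RPKM and -0.01 with the values as deposited.

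The count past 1.5-fold, 0 in each direction, depended on the setting. Towards LI it was 1 with the values as deposited (Sirt3), 1 with peaks weighted by length (Sirt3), 3 without the strongest peak (Sirt7, Kat5 and Sirt4), 1 with peaks in no other coding gene (Kat5) and 1 with peaks of 1 kb or longer (Kdm6b). Towards spleen it was 1 without the strongest peak (Brd8), 1 with peaks of 1 kb or longer (Hdac2), 1 after GC correction (Hdac6) and 1 with no minimum (Prmt6). The median level of 7.52 RPKM became 14.4 RPKM over the length covered by peaks, since the divisor is shorter. With reads taken to cover 75 bp, an alternative added after the data were seen, 34 instead of 15 intervals excluded 0. Apart from these constructions the cause was not tested.

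No paired analysis was possible because each tissue has 1 library. Low signal limits Sirt3, Sirt4, Hdac6 and Hdac8, whose intervals are wide.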
